A study of Mus musculus with 140 samples.

Results

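The family of miR-148 and miR-152 in mouse kidney consists of mmu-miR-148a-3p, mmu-miR-148b-3p and mmu-miR-152-3p, which were chosen by name as the 3 members among 1474 mature miRNAs counted. They were followed through 140 small RNA libraries of 28 mice (C57BL6/OlaHsd, wild-type males), 5 from each mouse. Laser microdissection isolated post-capillary venules, peritubular capillaries, glomeruli and arterioles, and whole kidney was taken without it. The mice formed 7 groups of 4: healthy controls at 0 h, sham-operated mice at 4 h, 24 h and 72 h, and mice with cecal ligation and puncture (CLP), which lets gut bacteria into the abdomen, at the same times. CLP was the study's model of sepsis-associated acute kidney injury, and the labels give no age.

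A miRNA pairs with messenger RNAs mainly through its seed, bases 2 to 8 from its 5′ end, and lowers their stability and translation. Members of a family share the seed and therefore largely share predicted targets. In human and mouse cells, miR-148a, miR-148b and miR-152 are known for targeting the DNA methyltransferase DNMT1, and miR-148a for targeting the low-density lipoprotein receptor and the cholesterol exporter ABCA1 in liver.

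The mature sequences are shown because the members differ at so few bases that the separation of their reads matters for every value that follows. Capitals mark the seed, and the sequences are from RefSeq (GRCm38.p6).

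miR-148a-3p: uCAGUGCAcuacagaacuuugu
miR-148b-3p: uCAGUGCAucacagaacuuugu
miR-152-3p: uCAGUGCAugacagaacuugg

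All 3 members matched an entry of the RefSeq table, and they were the only 3 of its 1679 mature miRNAs with the seed CAGUGCA. Counted from base 1 at the 5′ end, miR-148a-3p and miR-148b-3p differed by C9U and U10C and shared 20 of 22 bases. miR-148a-3p and miR-152-3p differed by C9U, U10G and U20G, and miR-148b-3p and miR-152-3p by C10G and U20G. The sources used here do not say how reads with mismatches or with several matches were assigned, so the split of reads between the members is uncertain.

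The opposite strand of each hairpin also yields a miRNA. These 5p strands are shown because they carry other seeds, marked in capitals.

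miR-148a-5p: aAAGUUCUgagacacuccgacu
miR-148b-5p: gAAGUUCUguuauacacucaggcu
miR-152-5p: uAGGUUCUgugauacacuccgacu

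The first pair of 5p strands shared the seed AAGUUCU, and miR-152-5p had AGGUUCU. In GENCODE vM21 (GRCm38), Mir148a lies on the minus strand between the genes Npvf and Nfe2l3, and its mature 3p strand covers chr6:51269829-51269850. Mir148b lies in an intron of Copz1 on the plus strand (3p strand chr15:103285185-103285206), and Mir152 in an intron of Copz2 on the plus strand (3p strand chr11:96850439-96850459). Copz1 and Copz2 encode paralogous zeta subunits of the COPI vesicle coat.

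The number of miRNA counts set how well each member could be measured. It ranged from 1412288 to 7921184 per library in whole kidney, 77258 to 1352025 in glomeruli, 19307 to 569283 in arterioles, 15148 to 567040 in venules and 4215 to 49456 in peritubular capillaries. A count of 0 allowed up to 712 CPM (a miRNA's count scaled to a fixed total of miRNA counts) in the shallowest peritubular capillary library and up to 2.12 CPM in the shallowest whole kidney library (3 counts of the total, counting error only). Marker miRNAs were checked against the labels. The summed level of 4 smooth muscle miRNAs (miR-143 and miR-145a strands) was 786000 CPM ± 196000 (SD, n = 28) in arterioles and had means of 34900 to 86600 CPM elsewhere. Such sums used library totals adjusted for composition, so a sum can exceed the fixed total. The summed level of the endothelial miR-126a strands was lowest in the libraries labelled peritubular capillaries, at 20300 CPM ± 3570, below the 29300 CPM ± 3280 of whole kidney. No marker was at 0 in all libraries of a compartment. Healthy and 4 h mice (12) have columns named in one style and 24 h and 72 h mice (16) in another, so this difference in naming and time cannot be told apart. Depth in whole kidney differed between these sets too.

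The members were counted at unequal levels, and the family was a small part of the miRNA pool. In whole kidney the 3 members together took 0.189% ± 0.0287 (SD, n = 28) of miRNA counts, and in the other compartments the mean share was 0.141% to 0.165%. Over all libraries, miR-152-3p had 150408 counts, miR-148a-3p 53290 and miR-148b-3p 32391. miR-152-3p took the largest mean share of the family's counts in each compartment, from 54.4% in peritubular capillaries to 74.5% in glomeruli. These are shares of counts, not of molecules, and the peritubular capillary libraries held only 2 to 83 counts of the family each.

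miR-148a-3p had its highest mean in arterioles. In CPM scaled over all 140 libraries (common scaling), its lowest, median and highest values in the 28 arteriole libraries were 160, 1000 and 2290 CPM. They were 107, 202 and 490 CPM in glomeruli, 0, 223 and 1740 CPM in peritubular capillaries, 50.3, 387 and 1630 CPM in venules and 204, 382 and 936 CPM in whole kidney. Common scaling raised the arteriole values above those with total counts alone, as in healthy replicate 1 (2060 against 1080 CPM). The whole kidney library of that mouse changed less (428 against 401 CPM). The ranges overlapped, but within mice the arteriole value was above the glomerular value in 27 of 28, above the whole kidney value in 23 and above the venular value in 23. The mean was 1030 CPM ± 544 (SD, n = 28) in arterioles, 483 ± 313 in venules, 478 ± 234 in whole kidney, 333 ± 384 in peritubular capillaries and 231 ± 85.4 in glomeruli.

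**Figure D1:**
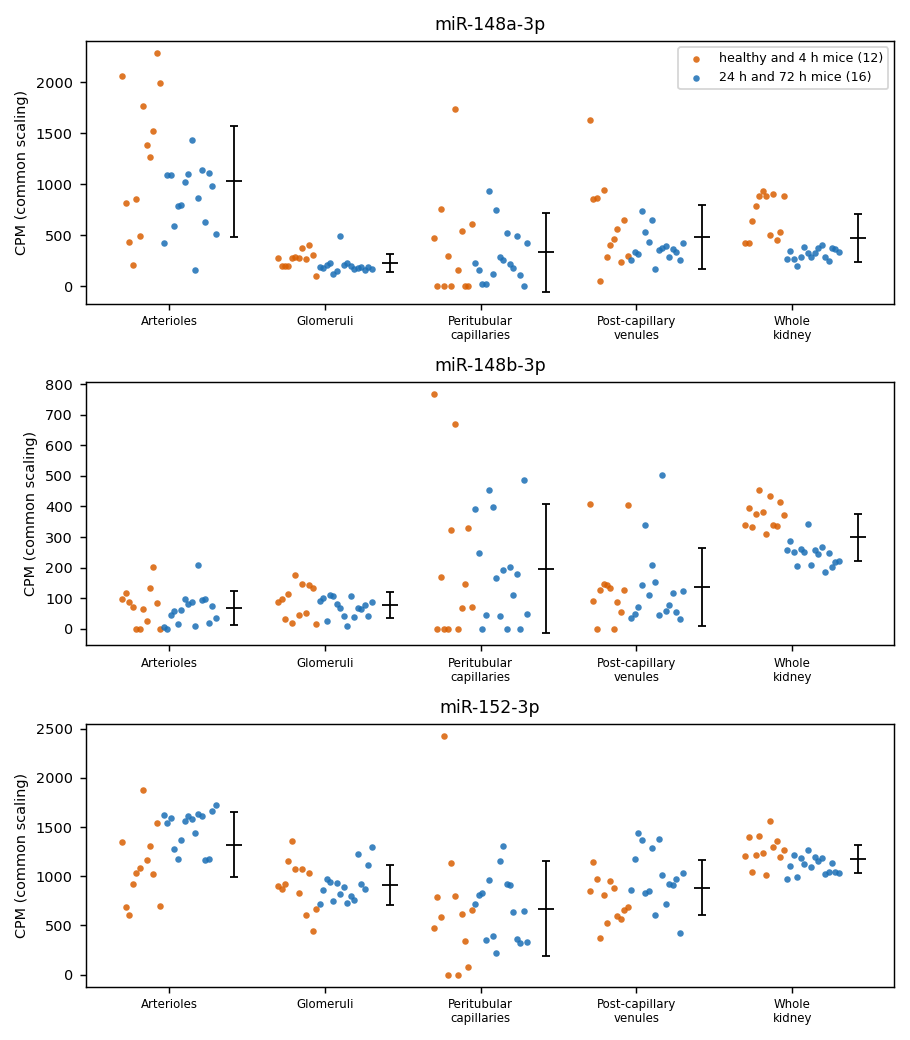
Level of each member in CPM (common scaling) in the 28 libraries of each compartment. Each point is 1 library, coloured by the set of mice, and the bar beside the points gives the mean and SD; miR-148a-3p is highest in arterioles (mean 1030 CPM) and miR-148b-3p in whole kidney (mean 299 CPM).

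Compartments of the same mice were compared with edgeR (quasi-likelihood), blocking on the mouse, and p-values were adjusted over all 445 miRNAs tested. Averaged over the 7 groups, 23 of the 30 tests of members passed an adjusted p of 0.05, 15 higher and 8 lower in the compartment named first. This has to be read against the background, since 45.2% of all miRNAs passed between glomeruli and arterioles, 44% between peritubular capillaries and arterioles, 46.5% between venules and arterioles and 73% between whole kidney and arterioles. The share was 54.6%, 46.3% and 68.1% for peritubular capillaries, venules and whole kidney against glomeruli. It was 35.3% for venules and 62.9% for whole kidney against peritubular capillaries, and 56.9% for whole kidney against venules. The median log2 difference of all miRNAs was not 0 either, and it depended on the scaling: for whole kidney over arterioles it was 1.33 with TMM, 0.757 with RLE size factors and 1.75 with total counts alone. The calls depended on the set of mice fitted and on settings as well: 11 of the 23 were kept when each mouse was left out in turn, and 6 of them also in each other setting tried. Each leave-out fit also redid the scaling and the filter on low counts, so a shift cannot be assigned to the mouse left out.

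Among those 6 were the arteriolar differences of miR-148a-3p from glomeruli and from peritubular capillaries. It was lower in glomeruli than in arterioles by a log2 fold change of -2.08 (SE 0.248, adjusted p = 1.83e-12 in edgeR), where the median of all miRNAs was 0.518. In peritubular capillaries it was lower by a log2 fold change of -1.80 (SE 0.27, adjusted p = 5.26e-09 in edgeR), against a median of -0.18. The values were -2.05 and -1.79 within the healthy and 4 h mice, and -2.11 and -1.81 within the 24 h and 72 h mice. With total counts alone they were -1.20 and -0.983. The peritubular capillary value rests on 246 counts in 28 libraries, of which 18 held under 10 counts, including 6 at 0. It ran from -2.56 to -1.65 when each mouse was left out. Against venules the log2 fold change was -1.13 (adjusted p = 4.41e-05 in edgeR), with -1.06 and -1.18 within the sets, but it fell to -0.379 (adjusted p = 0.204 in edgeR) with total counts alone. Against whole kidney it was -1.10, with -0.665 (adjusted p = 0.118 in edgeR) in the healthy and 4 h mice and -1.43 in the later ones, and -0.521 (adjusted p = 0.042 in edgeR) with total counts alone. Without healthy replicate 3, CLP 4 h replicate 2, sham 24 h replicate 4, CLP 24 h replicate 2, sham 72 h replicate 1 or CLP 72 h replicate 3, the whole kidney value lay between -1.75 and -1.67.

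The next levels of miR-148a-3p in order, in venules and whole kidney, did not differ beyond their spread (whole kidney over venules 0.03, 95% interval -0.451 to 0.506, adjusted p = 0.966 in edgeR), although a fit without the peritubular capillary libraries gave 0.473 (adjusted p = 0.0172 in edgeR). Peritubular capillaries and glomeruli, the lowest, also did not pass (0.28, 95% interval -0.248 to 0.817, adjusted p = 0.434 in edgeR). Venules were above glomeruli by 0.96 (adjusted p = 0.000547 in edgeR, 0.986 and 0.934 within the sets), yet leaving out single mice ended that call in 16 of 28 cases, with values down to 0.425. The smooth muscle markers were also highest in arterioles (mean 786000 CPM, range 448000 to 1360000). Their order elsewhere was not that of miR-148a-3p, which was lowest in glomeruli. The marker means were 86600 CPM in glomeruli (59100 to 118000) and 63600 CPM in whole kidney (40000 to 105000). They were 58200 CPM in venules (31200 to 80800) and 34900 CPM in peritubular capillaries (20100 to 48100). The part of smooth muscle in the levels of miR-148a-3p was not tested. In bulk libraries, fewer cells of a type and less RNA per cell cannot be told apart.

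miR-148b-3p had its highest mean in whole kidney and its lowest in arterioles. Its lowest, median and highest values were 185, 276 and 453 CPM (common scaling) in whole kidney and 0, 68.2 and 208 CPM in arterioles. They were 9.88, 79.1 and 177 CPM in glomeruli, 0, 158 and 767 CPM in peritubular capillaries and 0, 114 and 503 CPM in venules. Whole kidney lay above arterioles and above glomeruli in 28 of 28 mice each. The microdissected values rest on few reads, with 287 counts in all 28 arteriole libraries and 140 in all peritubular capillary libraries, of which 7 had 0 counts.

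Whole kidney was above arterioles by a log2 fold change of 2.37 (SE 0.378, adjusted p = 2.24e-08 in edgeR), where the median of all miRNAs was 1.33, with 2.70 in the healthy and 4 h mice and 2.12 in the later mice. It was above glomeruli by 2.01 (SE 0.353, adjusted p = 3.05e-07 in edgeR; median 0.605; 2.22 and 1.86 within the sets) and above venules by 1.38 (SE 0.359, adjusted p = 0.000576 in edgeR; median 0.66; 1.58 and 1.23 within the sets). These 3 differences were kept in each setting and each leave-out. The glomerular one fell to between 1.17 and 1.32 without any 1 of 7 mice, namely healthy replicates 1 and 3, CLP 4 h replicate 2, sham 24 h replicate 4, CLP 24 h replicate 2, sham 72 h replicate 1 and CLP 72 h replicate 3. Against peritubular capillaries the difference was 0.86 (adjusted p = 0.0407 in edgeR), below the median of all miRNAs, 1.4, and it passed in none of the 6 other settings. Peritubular capillaries, venules, glomeruli and arterioles followed in order of the mean, and no pair of neighbours among them passed. Other pairs did. Peritubular capillaries over arterioles was 1.51 (adjusted p = 0.00117 in edgeR; median -0.18), lost in 15 of 28 leave-outs. Peritubular capillaries over glomeruli was 1.15 (adjusted p = 0.00906 in edgeR; median -0.698), lost in 19. Venules over arterioles was 0.988 (adjusted p = 0.031 in edgeR; median 0.807), lost in 21. Glomeruli over arterioles was 0.36 (adjusted p = 0.538 in edgeR), but 1.21 with total counts alone, which passed (adjusted p = 0.00377 in edgeR). The tubular markers miR-192-5p, miR-194-5p and miR-215-5p had the same order of compartments from whole kidney (mean 8990 CPM, range 6540 to 13100) through peritubular capillaries (7050, 4760 to 11000), venules (3610, 1540 to 7070) and glomeruli (817, 296 to 1510) to arterioles (389, 61.3 to 1770). Their part in the levels of miR-148b-3p was not tested.

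miR-152-3p had its highest mean in arterioles and its lowest in peritubular capillaries. The lowest, median and highest values were 606, 1360 and 1880 CPM (common scaling) in arterioles, 973, 1190 and 1560 CPM in whole kidney and 439, 898 and 1360 CPM in glomeruli. They were 377, 871 and 1440 CPM in venules and 0, 645 and 2430 CPM in peritubular capillaries. The peritubular capillary values rest on 520 counts in 28 libraries, of which 11 held under 10 counts. The ranges of all compartments overlapped. The means were 1320 CPM ± 335 in arterioles, 1180 ± 143 in whole kidney, 911 ± 207 in glomeruli, 886 ± 283 in venules and 672 ± 485 in peritubular capillaries (SD, n = 28).

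Whole kidney was above peritubular capillaries by a log2 fold change of 0.99 (SE 0.175, adjusted p = 7.04e-07 in edgeR), with 1.26 and 0.784 within the sets, and this was the only difference of miR-152-3p kept in each setting and leave-out. It was smaller than the median of all miRNAs for that pair, 1.40. It rose to between 1.51 and 1.63 without any 1 of 8 mice, namely healthy replicate 2, sham 24 h replicate 1, CLP 24 h replicate 4, sham 72 h replicates 3 and 4, and CLP 72 h replicates 1, 2 and 4. The arteriolar level had no stable rank. Glomeruli over arterioles was -0.53 with TMM (adjusted p = 0.00479 in edgeR; -0.29 and -0.701 within the sets), -0.557 with RLE size factors and 0.315 with total counts alone. It did not pass without healthy replicate 1 (-0.361, adjusted p = 0.0693 in edgeR) or CLP 4 h replicate 3 (-0.306, adjusted p = 0.13 in edgeR). The neighbours in order, whole kidney over arterioles (-0.14, adjusted p = 0.444 in edgeR) and venules over glomeruli (-0.05, adjusted p = 0.991 in edgeR) did not pass. Leaving out single mice made the first pass in 8 of 28 cases (values from -0.778 to -0.089) and the second in 17 (-0.596 to -0.0452), and RLE size factors made the first -0.724 (adjusted p = 3.82e-05 in edgeR). Total counts alone turned the first to 0.4, which also passed (adjusted p = 0.0233 in edgeR), and the second was -0.47 (adjusted p = 0.000118 in edgeR) without the peritubular capillary libraries. Peritubular capillaries were below arterioles by -1.13 (-1.04 and -1.20 within the sets) and this passed when each mouse was left out, at values of -1.79 to -1.70 without any 1 of 15 mice, but it was -0.321 (adjusted p = 0.168 in edgeR) with total counts alone. The 15 were healthy replicates 2 and 3, CLP 4 h replicates 2 and 4, sham 24 h replicates 1 and 4, CLP 24 h replicates 2 and 4, sham 72 h replicates 1, 3 and 4, and CLP 72 h replicates 1 to 4.

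**Figure D2:**
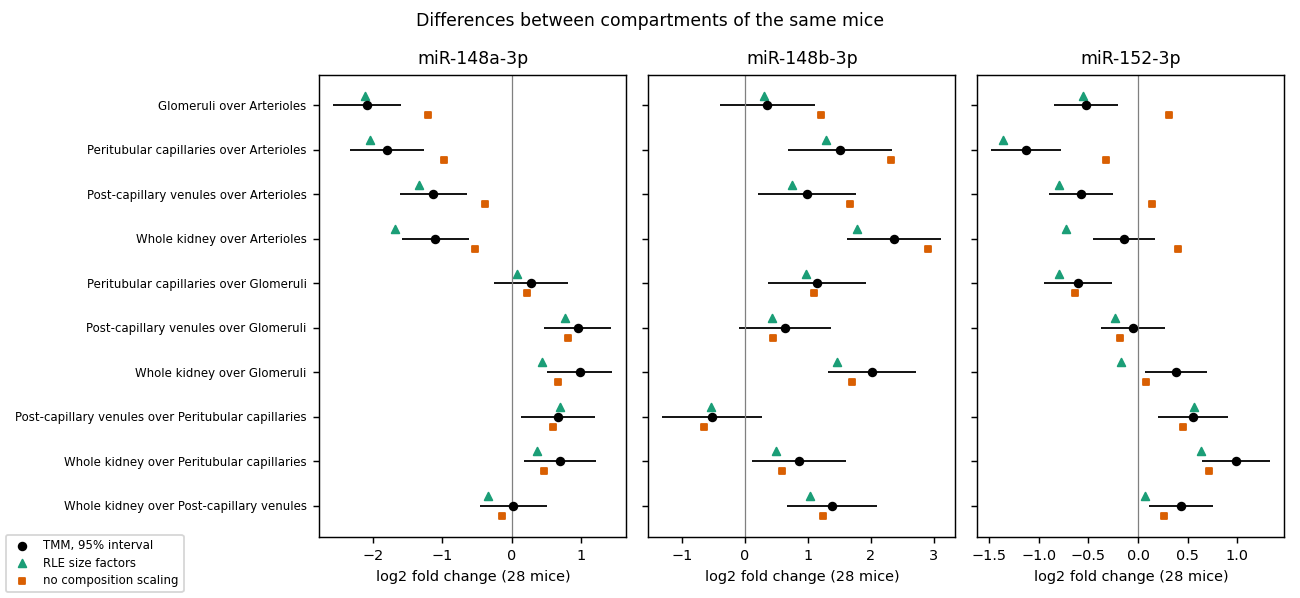
Log2 fold change between compartments of the same mice for each member, averaged over the 7 groups (28 mice in all). Black points and lines are the edgeR estimate with TMM and its 95% interval, triangles use RLE size factors and squares total counts alone; miR-148a-3p in glomeruli over arterioles is below 0 under all 3 scalings (-2.08, -2.11 and -1.20), and miR-152-3p there is not (-0.53, -0.557 and 0.315).

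The makeup of the family does not depend on how libraries are scaled, and it differed between compartments too. miR-148a-3p took 40.4% ± 13.6 (SD, n = 28) of the family's counts in arterioles and 19.1% ± 6.41 in glomeruli, and it was the lower in glomeruli in 27 of 28 mice. Its mean share was 30.4% in venules, 29% in peritubular capillaries (2 to 83 family counts a library) and 23.4% in whole kidney. miR-148b-3p took 15.2% ± 1.81 in whole kidney and 2.89% ± 2.49 in arterioles, and its share was higher in whole kidney in 28 of 28 mice. The lowest whole kidney share, 11.7%, lay above the highest arteriole share, 7.69%. Whole kidney was also above glomeruli (6.41% ± 3.42) in 28 of 28 mice.

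**Figure D3:**
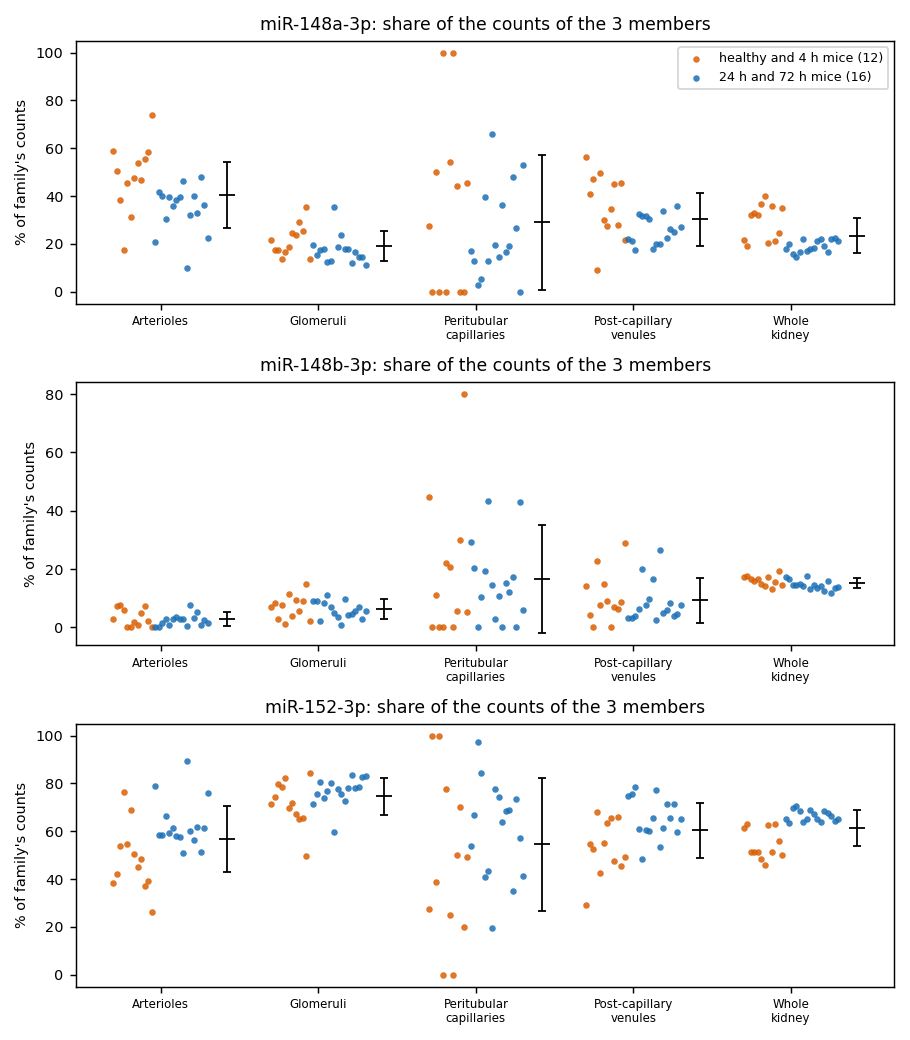
Share of each member in the counts of the 3 members (in percent) in the 28 libraries of each compartment. Each point is 1 library, coloured by the set of mice, and the bar gives the mean and SD; the miR-148b-3p share runs from 11.7% to 19.3% in whole kidney and from 0% to 7.69% in arterioles.

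Within the 4 healthy mice alone, 0 of the 30 tests of members passed (edgeR quasi-likelihood test, mouse as a block; 5 at an unadjusted p under 0.05; 0 with DESeq2 on the 20 healthy libraries), while 11% to 32.4% of all miRNAs passed. Against arterioles the share was 11% for glomeruli, 20.4% for peritubular capillaries, 16.2% for venules and 29.4% for whole kidney. Against glomeruli it was 26.1% for peritubular capillaries, 15.5% for venules and 32.4% for whole kidney. It was 11.5% and 17.1% for venules and whole kidney against peritubular capillaries, and 19.3% for whole kidney against venules. miR-148a-3p stood at 2060, 814, 433 and 212 CPM (common scaling) in the healthy arterioles and at 275, 203, 200 and 199 CPM in the glomeruli of the same mice. The arteriole libraries of replicates 3 and 4 held only 10 and 3 counts of it. Glomeruli over arterioles was -1.78 (SE 0.677, adjusted p = 0.0769 in edgeR), between -2.06 and -1.08 when 1 of the 4 mice was left out, the smaller without healthy replicate 1, and between -2.06 and -0.816 in other settings (adjusted p of 0.0155 to 0.385 in edgeR and DESeq2). miR-148b-3p stood at 340, 396, 332 and 376 CPM in healthy whole kidney and at 88.1, 97.7, 32.6 and 115 CPM in the glomeruli. Whole kidney over glomeruli was 2.26 (SE 0.946, adjusted p = 0.0544 in edgeR), and it was between 1.07 and 2.37 when 1 of the 4 mice was left out, the smallest without healthy replicate 3. In other settings it was between 1.52 and 2.25 (adjusted p of 0.0445 to 0.216 in edgeR and DESeq2), and for both values the setting that passed was the one without the mouse block.

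The study's main question was how sepsis alters the miRNAs of each compartment. Of the 45 tests of a member in CLP against sham, 0 passed (edgeR quasi-likelihood test over all miRNAs of the compartment; 1 at an unadjusted p under 0.05; 0 with DESeq2), and 0% to 1.85% of all miRNAs passed. At 4 h, 24 h and 72 h the share was 0.36%, 0% and 0% in arterioles, 0.592%, 0% and 0.592% in glomeruli, and 0%, 0.498% and 0.995% in peritubular capillaries. It was 0%, 0% and 1.05% in venules and 0.185%, 0.554% and 1.85% in whole kidney at these times. Here CPM are scaled within a compartment's 28 libraries (compartment scaling). The log2 fold changes, with CLP over sham, ran from -0.815 to 2.38 for miR-148a-3p, from -0.696 to 2.02 for miR-148b-3p and from -1.36 to 0.14 for miR-152-3p.

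In whole kidney, the deepest libraries, CLP and sham mice overlapped at each time for all 3 members. miR-148a-3p stood at 868, 440, 514 and 817 CPM (compartment scaling) in CLP mice at 4 h and at 877, 875, 826 and 471 CPM in sham mice. At 24 h it was 292, 382, 326 and 275 CPM in CLP and 271, 349, 280 and 216 CPM in sham, and at 72 h 272, 356, 359 and 348 CPM against 317, 361, 409 and 272 CPM. Both operated groups at 4 h spread over a wider range than those at 24 h and 72 h. The unoperated healthy mice, at 401, 395, 613 and 743 CPM, did so too. The log2 fold change was -0.21 at 4 h (95% interval -0.664 to 0.251), 0.19 at 24 h (-0.266 to 0.649) and -0.03 at 72 h (-0.484 to 0.43), with edgeR adjusted p of 0.999, 0.842 and 0.983.

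miR-148b-3p in whole kidney stood at 323, 321, 402 and 342 CPM in CLP mice at 4 h and at 449, 358, 292 and 405 CPM in sham mice. At 24 h the values were 262, 247, 340 and 201 CPM in CLP and 261, 289, 258 and 219 CPM in sham, and at 72 h 265, 190, 213 and 228 CPM against 253, 233, 265 and 175 CPM. The 95% intervals of the log2 fold change were -0.443 to 0.208, -0.292 to 0.355 and -0.372 to 0.275. miR-152-3p stood at 1240, 1300, 1170 and 1170 CPM in CLP at 4 h and at 1400, 1160, 945 and 1450 CPM in sham. At 24 h it was 1200, 1110, 1250 and 1060 CPM against 990, 1110, 1250 and 1050 CPM, and at 72 h 1120, 1070, 1020 and 1070 CPM against 1170, 1110, 1180 and 961 CPM. Its intervals, -0.285 to 0.238, -0.193 to 0.329 and -0.31 to 0.211, were the narrowest of the family at each time.

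**Figure D4:**
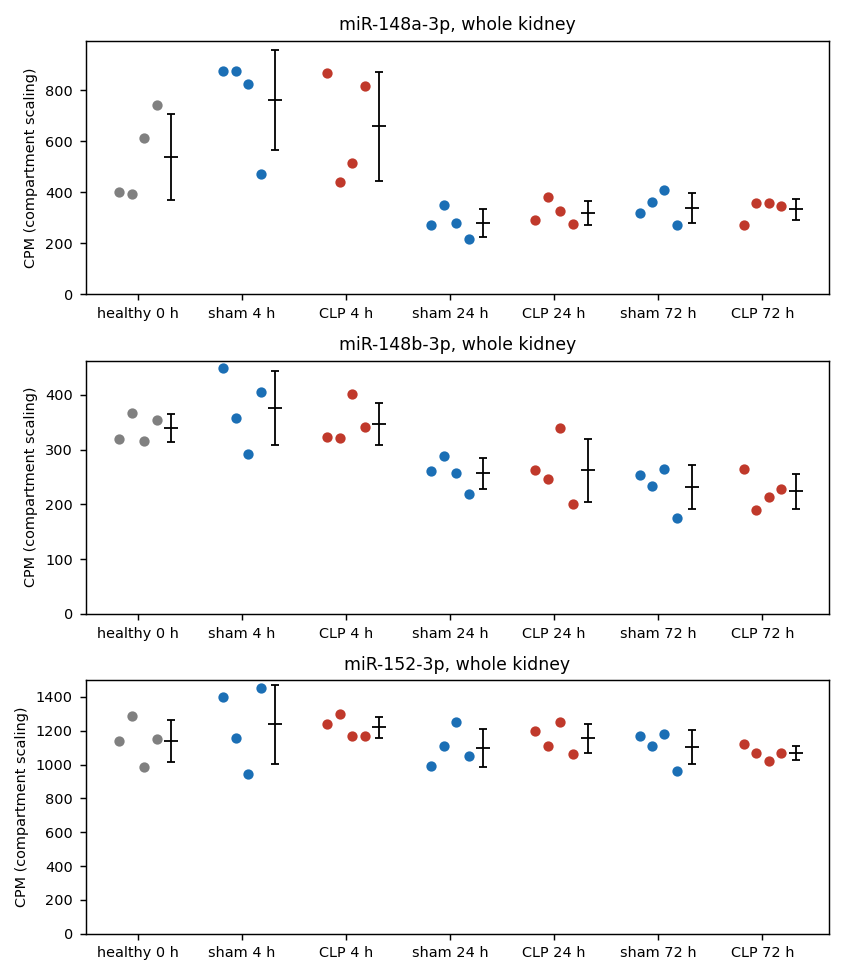
Level of each member in whole kidney (CPM, compartment scaling) in the 4 mice of each of the 7 groups. Each point is 1 mouse, and the bar beside the points gives the mean and SD; CLP and sham overlap at 4 h, 24 h and 72 h for each member.

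The smallest p of the family was that of miR-152-3p in glomeruli at 4 h. It stood at 814, 1260, 611 and 881 CPM (compartment scaling) in CLP mice and at 1780, 1460, 1060 and 1270 CPM in sham mice. CLP replicate 2 lay within the sham range and the other 3 CLP mice below it. The mean was 891 CPM ± 270 in CLP and 1390 ± 303 in sham (SD, n = 4), and the log2 fold change was -0.63 (SE 0.242, adjusted p = 0.159 in edgeR), where 0.592% of all miRNAs passed. Without CLP 4 h replicate 2 it was -0.905 and passed (adjusted p = 0.0437 in edgeR). Over the 6 other settings the adjusted p was 0.0783 to 0.507, the lower with DESeq2. The healthy glomeruli stood at 1130, 1170, 1250 and 1290 CPM.

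In 1 of the 45 comparisons the groups did not overlap. The share of all miRNAs without overlap at 4 h, 24 h and 72 h was 2.16%, 2.16% and 3.6% in arterioles, 5.92%, 8.58% and 2.66% in glomeruli and 1.49%, 3.98% and 9.95% in peritubular capillaries. It was 0.351%, 2.11% and 1.05% in venules and 1.11%, 6.09% and 11.1% in whole kidney. In peritubular capillaries at 72 h, miR-152-3p stood at 396, 323, 649 and 362 CPM in CLP mice and at 1430, 1160, 1120 and 752 CPM in sham mice. All 4 CLP mice lay below all sham mice, as 9.95% of the 201 miRNAs tested there also did in either direction. The CLP values rest on 8, 11, 16 and 7 counts and the sham values on 41, 37, 50 and 40. The log2 fold change was -1.36 (SE 0.982, 95% interval -3.33 to 0.621, adjusted p = 0.773 in edgeR), and 0.995% of miRNAs passed.

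Other wide differences also did not pass. miR-148a-3p in peritubular capillaries at 24 h stood at 1110, 127, 937 and 353 CPM in CLP and at 241, 176, 25.7 and 24.2 CPM in sham, from 33, 3, 27 and 7 and from 11, 7, 1 and 1 counts. The groups overlapped, and the log2 fold change of 2.38 (SE 1.41) had an edgeR adjusted p of 0.991. miR-148b-3p in arterioles at 4 h was at 105, 136, 60.6 and 0 CPM in CLP and at 0, 0, 46.1 and 18.8 CPM in sham, from at most 14 counts a library (log2 fold change 2.02, SE 1.34, adjusted p = 0.638 in edgeR). miR-148b-3p in venules at 24 h was at 368, 120, 210 and 165 CPM in CLP, from 31 to 57 counts, and at 40, 56.2, 81.2 and 150 CPM in sham, from 5 to 15 counts. The ranges overlapped through CLP replicate 2 and sham replicate 4, and the log2 fold change was 1.39 (SE 0.968, adjusted p = 0.983 in edgeR). miR-148a-3p in the arterioles at 4 h was at 1000, 1020, 1630 and 1420 CPM in CLP and at 574, 357, 1240 and 1040 CPM in sham. The ranges overlapped through sham replicates 3 and 4, and the log2 fold change was 0.64 (SE 0.496, adjusted p = 0.709 in edgeR).

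**Figure D5:**
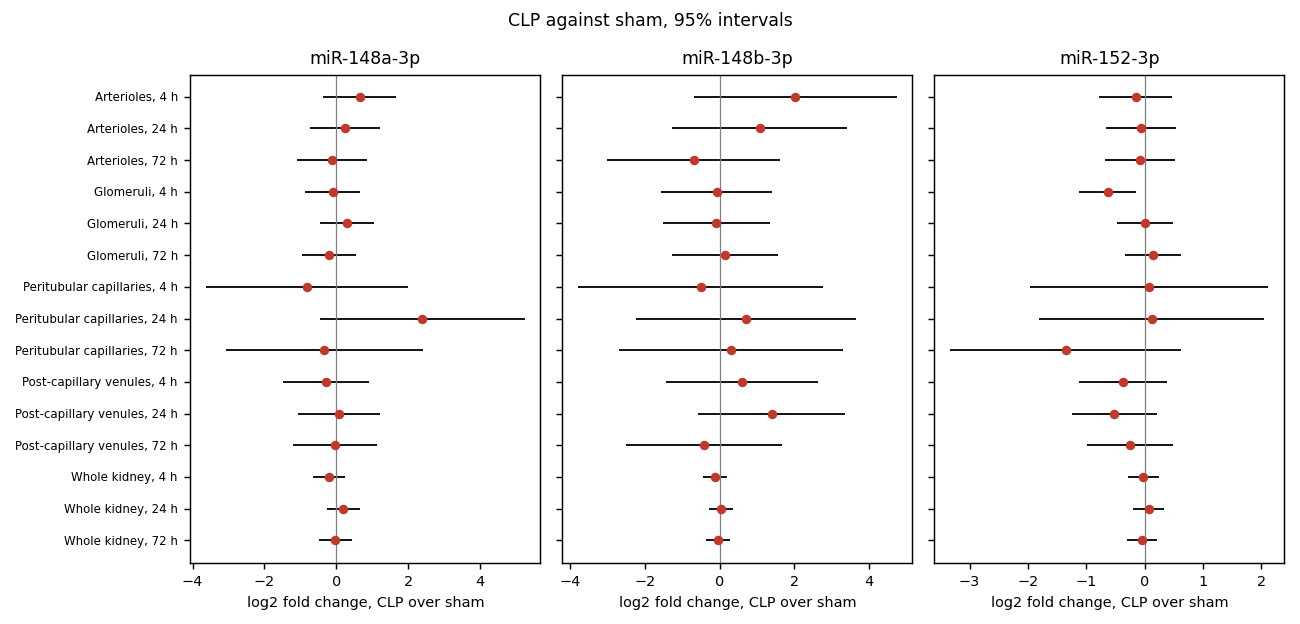
Log2 fold change of CLP over sham with its 95% interval for each member, compartment and time, 4 mice against 4. Intervals are narrowest in whole kidney and widest in peritubular capillaries, and 44 of the 45 include 0.

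Neither the time nor the compartment changed the CLP effect on a member past the threshold. A dependence of the CLP effect on time was tested by an F test with 2 degrees of freedom in each compartment, and 0 of 15 member tests passed (edgeR; 0 at an unadjusted p under 0.05; 0 with DESeq2; 0% to 0.592% of all miRNAs). Whether the CLP effect differed between the 5 compartments was tested at each time, and 0 of 9 member tests passed (edgeR; 0 at an unadjusted p under 0.05; 0% to 0.225% of all miRNAs). Sham mice at 4 h against healthy mice gave 0 of 15 (edgeR; 2 at an unadjusted p under 0.05; 0 with DESeq2; 0% to 1.44% of all miRNAs). One of the 2 was miR-148a-3p in whole kidney, at 401, 395, 613 and 743 CPM (compartment scaling) in healthy mice beside the sham values above (log2 fold change 0.50, SE 0.224, adjusted p = 0.762 in edgeR). The other was miR-152-3p in arterioles, at 767, 465, 376 and 507 CPM in healthy and 689, 786, 1320 and 867 CPM in sham mice (0.78, SE 0.318, adjusted p = 0.31 in edgeR). In both, the groups overlapped.

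The level of miR-148a-3p in whole kidney was higher in the healthy and 4 h mice, at 395 to 877 CPM (mean 653 ± 200, SD, n = 12), than in the 24 h and 72 h mice, at 216 to 409 CPM (318 ± 51.7, n = 16). miR-148b-3p was at 292 to 449 CPM (354 ± 45.8) and 175 to 340 CPM (244 ± 40.4), and miR-152-3p at 945 to 1450 CPM (1200 ± 150) and 961 to 1250 CPM (1110 ± 86.4). The share of miR-152-3p in the family's whole kidney counts did not overlap between the sets, with 45.8% to 63.1% in the former and 63.6% to 70.7% in the latter. The levels of miR-152-3p did overlap, and its mean was not higher in the latter. The mean of miR-148a-3p was lower there. How many of all miRNAs differ between the sets is not given here, so these differences cannot be called particular to the family. The mean share of miR-148a-3p was higher in the healthy and 4 h mice in each compartment. It was 29.3% against 19% in whole kidney, 48.2% against 34.7% in arterioles, 21.4% against 17.3% in glomeruli and 36.3% against 25.9% in venules. In peritubular capillaries it was 35.2% against 24.3%, but the direction there is uncertain. The 35.2% includes 100% in sham 4 h replicates 1 and 4, from 6 and 2 family counts, and 0 counts of miR-148a-3p in 5 of 12 libraries. No test is given, since the naming of the columns, the time and the depth change together. Whole kidney libraries held 1412288 to 2987003 miRNA counts in the healthy and 4 h mice and 3147306 to 7921184 in the later mice.

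The 5p strands were rare. Over all libraries, miR-152-5p had 3035 counts, miR-148b-5p 1646 and miR-148a-5p 643, of which 2743, 1464 and 602 were in whole kidney. There, the 5p strand took 4.54% ± 1.08 (SD, n = 28) of the counts of both strands of Mir148b, 2.06% ± 0.34 for Mir152 and 1.38% ± 0.353 for Mir148a. The lowest Mir148b share, 2.02%, was above the highest Mir148a share, 1.99%, while Mir152 (1.43% to 2.73%) overlapped both. In the microdissected libraries most 5p counts were 0, and miR-148a-5p had a count in 0 of 28 peritubular capillary and 4 of 28 arteriole libraries. None of the 5p strands passed in whole kidney for CLP against sham or sham at 4 h against healthy mice (edgeR adjusted p of 0.805 to 0.999). No fold between compartments is given for the 5p strands, since whole groups of microdissected libraries were at 0 counts, as for miR-152-5p in the glomeruli of both 4 h groups and of CLP mice at 24 h.

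How closely the members followed each other depended on the pair and the samples. Over the 35 means of compartment, state and time (log2 CPM), Pearson's r was 0.535 for miR-148a-3p with miR-152-3p, 0.155 for miR-148b-3p with miR-152-3p and 0.0715 for miR-148a-3p with miR-148b-3p. These points share mice and depth. Over the 28 whole kidney libraries with group means removed, r was -0.217, 0.667 and 0.0808 for the same pairs, and miR-152-3p ranked 9 among the 541 others for likeness to miR-148b-3p. The miRNAs most like miR-148a-3p over the 35 means were miR-100-5p (r = 0.844), miR-133a-3p (0.787) and miR-195a-5p (0.786), and within whole kidney groups miR-541-5p (0.819), miR-182-5p (0.79) and miR-296-3p (0.76). For miR-148b-3p they were miR-582-5p (0.815), miR-205-5p (0.791) and miR-532-5p (0.783), and within whole kidney groups let-7g-5p (0.755), miR-192-5p (0.749) and miR-335-5p (0.735). For miR-152-3p they were let-7e-5p (0.778), miR-872-5p (0.755) and miR-342-3p (0.748), and within whole kidney groups miR-200a-3p (0.817), miR-3970 (0.804) and miR-101b-3p (0.778). They are given as a description, out of 444 and 541 others.

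Members of 3 other lists of miRNAs were read alongside. In CLP against sham, where 0% to 1.85% of all miRNAs passed, 0 of 75 tests passed for 5 miRNAs encoded in Hox clusters, 0 of 105 for 7 miRNAs directed at DNA methyltransferases and 0 of 96 for 8 miRNAs of lipoprotein and cholesterol control (edgeR). Over all 10 compartment pairs, where 35.3% to 73% of all miRNAs passed, 15 tests of the Hox list were higher and 18 lower of 50, 25 and 21 of 70 for the methyltransferase list and 27 and 22 of 70 for the lipoprotein list. Between glomeruli and arterioles, the pair with the strongest difference of miR-148a-3p and with 45.2% of all miRNAs passing, the Hox-linked miR-10b-5p and miR-196a-5p were lower in glomeruli (-0.475 and -0.577 on the log2 scale, adjusted p = 0.0015 in edgeR and 1.9e-07) and 3 others did not pass (median of the 5 -0.219, of all miRNAs 0.518). Of the methyltransferase list, miR-143-3p (-3.33) and miR-29c-3p (-0.318) were lower in glomeruli and miR-29a-3p (0.407) was higher, out of 7 (median 0.000828). miR-143-3p is also among the smooth muscle markers used above. Of the lipoprotein list, 3 of 7 tested were higher in glomeruli and 3 lower (median 0.51), among them miR-27b-3p (0.51), miR-128-3p (-0.694) and miR-223-3p (1.36).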

How the data were processed

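A RealSeq kit served to build the small RNA libraries, per the labels' protocols. The tools Bowtie 1.3.0, cutadapt 3.3, MultiQC 1.10 and FastQC 0.11.9 and the builds GRCm38.p6 and GRCm39 are listed, with no role, per the submitters' processing notes. The authors deposited raw counts per mature miRNA and library, with no normalization. The 10 entries starting with #, which name no miRNA, took a mean of 5.58% of counts in whole kidney and 78.1% to 97.9% in microdissected libraries, and stayed out of library sizes and tests.

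Models were fitted in edgeR 4.0.16 under R 4.3.3, on the 28 libraries of each compartment (CLP against sham, sham 4 h against healthy, change with time) and on all 140 libraries with the mouse, from the titles, as a block (compartments). TMM scaling was computed within a compartment (compartment scaling) or over all libraries (common scaling). filterByExpr used a minimum count of 10 and a minimum total count of 15. P-values are two-sided and adjusted by Benjamini-Hochberg over all miRNAs of a comparison, with 0.05 as the threshold. Replicates are the mice that the labels call biological replicates. Scripts were tested on simulated data.

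The members and lists were chosen with earlier results of these data known. The named miRNAs were the members, their 5p strands, the 3 most alike of each member by Pearson's r over group means and within whole kidney groups, and at most 5 called members of each other list per comparison. Alternatives were RLE size factors, total counts alone, no filter, DESeq2 1.42.0, with or without a block, only the libraries compared, and leaving out each mouse. The filter and the scaling were redone in each leave-out. Chosen after seeing the data were the fits within each set of column names and without peritubular capillary libraries.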

Additional observations from a re-analysis of the deposited data

Results flagged for a closer look

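In groups of 4 mice, 7 of 105 tested groups held a mouse far from the other 3 (a gap beyond Dixon's 95% critical value), where chance gives about 1 in 20, or 5.25. For miR-148a-3p, sham 72 h replicate 2 stood at 658 CPM (compartment scaling) in peritubular capillaries, from 21 counts, with the others at 207 to 280 CPM. In whole kidney, sham 4 h replicate 4 stood at 471 CPM for miR-148a-3p beside 826 to 877 CPM, and CLP 72 h replicate 1 at 272 CPM beside 348 to 359 CPM. For miR-148b-3p in venules, sham 4 h replicate 4 had 0 counts and 0 CPM beside 155 to 172 CPM, and sham 72 h replicate 2 stood at 452 CPM, from 4 counts, beside 47 to 90.2 CPM. For miR-152-3p, healthy replicate 4 stood at 2980 CPM in peritubular capillaries, from 12 counts, beside 604 to 876 CPM, and CLP 72 h replicate 3 at 439 CPM in venules beside 1030 to 1100 CPM.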

How the results depend on the processing

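The 0 member calls of CLP against sham, sham 4 h against healthy, the change with time and the CLP effect across compartments stayed 0 under each scaling, without a filter, with or without the block and, where run, with DESeq2; leaving out 1 mouse gave 0 to 1 for CLP against sham. Calls over all miRNAs moved more: the 25 of CLP against sham became 38 without a filter, 51 with only the 2 groups compared, 65 with DESeq2 and 14 to 36 without 1 mouse. For sham 4 h against healthy the 4 became 2 with only 2 groups, 10 with DESeq2 and 2 to 6 without 1 mouse, and for the change with time the 2 became 9 without a filter, 9 with DESeq2 and 2 to 8. For the CLP effect across compartments the 2 became 0 with total counts alone, 22 without a filter, 17 with no replicate block (no mouse term) and 0 to 5. In healthy mice the 0 member calls became 1 with total counts alone, 3 with no replicate block and 0 to 1 without 1 mouse. Over all mice the 23 became 13 within healthy and 4 h mice, 15 within later mice, 13 without a filter and 17 to 21 without 1 mouse. For miR-152-3p, total counts alone turned venules over arterioles to 0.137, glomeruli over arterioles to 0.315 and whole kidney over arterioles to 0.4 (0.22 within healthy and 4 h mice), RLE size factors turned whole kidney over glomeruli to -0.167, and venules over glomeruli were 0.099 within later mice. Whole kidney over venules for miR-148a-3p was -0.249 within later mice, -0.336 with RLE size factors, -0.143 with total counts alone and -0.0617 with no replicate block. Leaving out 1 mouse turned peritubular capillaries over glomeruli for miR-148a-3p (-0.603 to 0.35), venules over glomeruli for miR-148b-3p (-0.104 to 0.662), whole kidney over glomeruli for miR-152-3p (-0.38 to 0.405) and whole kidney over venules for miR-148a-3p (-0.26 to 0.495). The mean of miR-152-3p was 899 CPM in arterioles with total counts alone and 911 CPM in whole kidney with RLE size factors. The cause of these shifts was not tested. Sham and CLP mice share only a replicate number: the correlation of same-numbered libraries was over 0.1 in 10 of 60 pairs (-0.28 to 0.283) and in 0 comparisons for every pair. With the replicate block, 0 member calls and 23 calls over all miRNAs remained in number for CLP against sham. Depth limits the peritubular capillaries most, where 0 counts allow up to 712 CPM.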
